A study of Sus scrofa with 6 samples.

Results

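The genes described here are the tubulins and the proteins that fold, bind, sever and move along microtubules, 47 genes read by 76 probe sets, out of 6765 genes that could be named on the array. They were picked by a rule on gene symbols, written with earlier results of these data known. Each gene is represented by the probe set with its highest mean signal. RNA came from the cortex of 6 pig embryos, 3 taken at embryonic day 80 (E80) and 3 at embryonic day 60 (E60), between which the surface of the pig brain folds. No treatment, genotype, breed or sex is given in the labels of either group, and the embryos are described as litter mates without saying which share a litter, so litter and day cannot be told apart. Each embryo was measured on 1 Affymetrix Pig Genome Array, where several short probes together (a probe set) report 1 transcript, and the replicates of each day are numbered 1 to 3.

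Microtubules are hollow filaments built from pairs of alpha and beta tubulin. Gamma tubulin complexes start new filaments, structural microtubule-associated proteins (MAPs) stabilise them, stathmins bind free tubulin, and severing enzymes cut them. Kinesins carry cargo mostly towards the growing plus end, and cytoplasmic dynein, together with dynactin, carries cargo towards the minus end. In the developing cortex this system moves the nucleus of migrating neurons, extends axons and dendrites and separates chromosomes in dividing progenitors, and mutations in several of its genes cause a smooth or malformed cortex in humans.

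Changes are given as log2 differences of the signal, E80 minus E60, from limma fitted over all 23999 probe sets, and a gene is said to have risen or fallen where the Benjamini-Hochberg adjusted p was under 0.05. Of these probe sets 224 rose and 243 fell, or 1.95% in all, and after each array was centred on its median 311 rose and 108 fell, with the median difference of all probe sets at 0.06 in place of -0.05. E80 replicate 3 differed from the other arrays in its signal for 28S ribosomal RNA, which was 896, 999.9 and 165 on E80 replicates 1, 2 and 3 and 816, 887 and 525 on E60 replicates 1, 2 and 3, and in TTR (transthyretin, secreted by the choroid plexus), which had 4475 there, 15.1 and 6.25 on E80 replicates 1 and 2 and 1.47 to 3.70 at E60. The 3' to 5' signal ratio was 1.01 to 1.12 at E80 and 0.851 to 1.03 at E60 for beta-actin, and 1.22 to 1.30 at E80 and 1.31 to 1.41 at E60 for GAPDH. Of 9 general neuron markers 6 could be measured, with mean signals (taken on the log2 scale) of 328 to 3010, beside a median of 59.85 over all probe sets. Of 11 markers of cortical excitatory neurons only CUX1 could be measured (212 to 289 at E80 and 187 to 232 at E60). A single gene cannot show the cortical origin, which was therefore not checked.

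Of the 47 microtubule genes 2 rose, MAP1A and DYNC1I1, none fell and 45 did not pass the test. The share called, 2 of 47, stands beside 2.54% of the 6765 genes with a name (1.49% higher at E80) and 1.95% of all probe sets (0.933% higher at E80). Point estimates were above 0 for 28 genes and below 0 for 19, and 7 genes had an unadjusted p under 0.05, beside 20.7% of all named genes. Signals of the days did not overlap for 15 genes, or 31.9%, beside 27.5% of named genes and 23.6% of all probe sets. Of the 47 genes 10 were higher at E80 with no overlap, beside 12.8% of named genes and 9.25% of probe sets. A further 5 of the 47 were lower with no overlap, beside 14.7% of named genes and 14.4% of probe sets. The median log2 difference of the 47 genes was 0.11, against -0.05 over all probe sets and -0.00046 over all named genes, and after quantile normalization it was -0.0027. Differences of at least 2-fold were seen for MAP1A and KATNA1, 2 of 47, beside 4.57% of named genes and 7.56% of probe sets. The study set a threshold of 3-fold with a like direction in all arrays, read here as no overlap between the days, and none of the 47 met it, beside 0.724% of named genes and 1.21% of probe sets. Since whole tissue was measured, fewer cells of a type and less RNA per cell cannot be told apart.

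**Figure D1:**
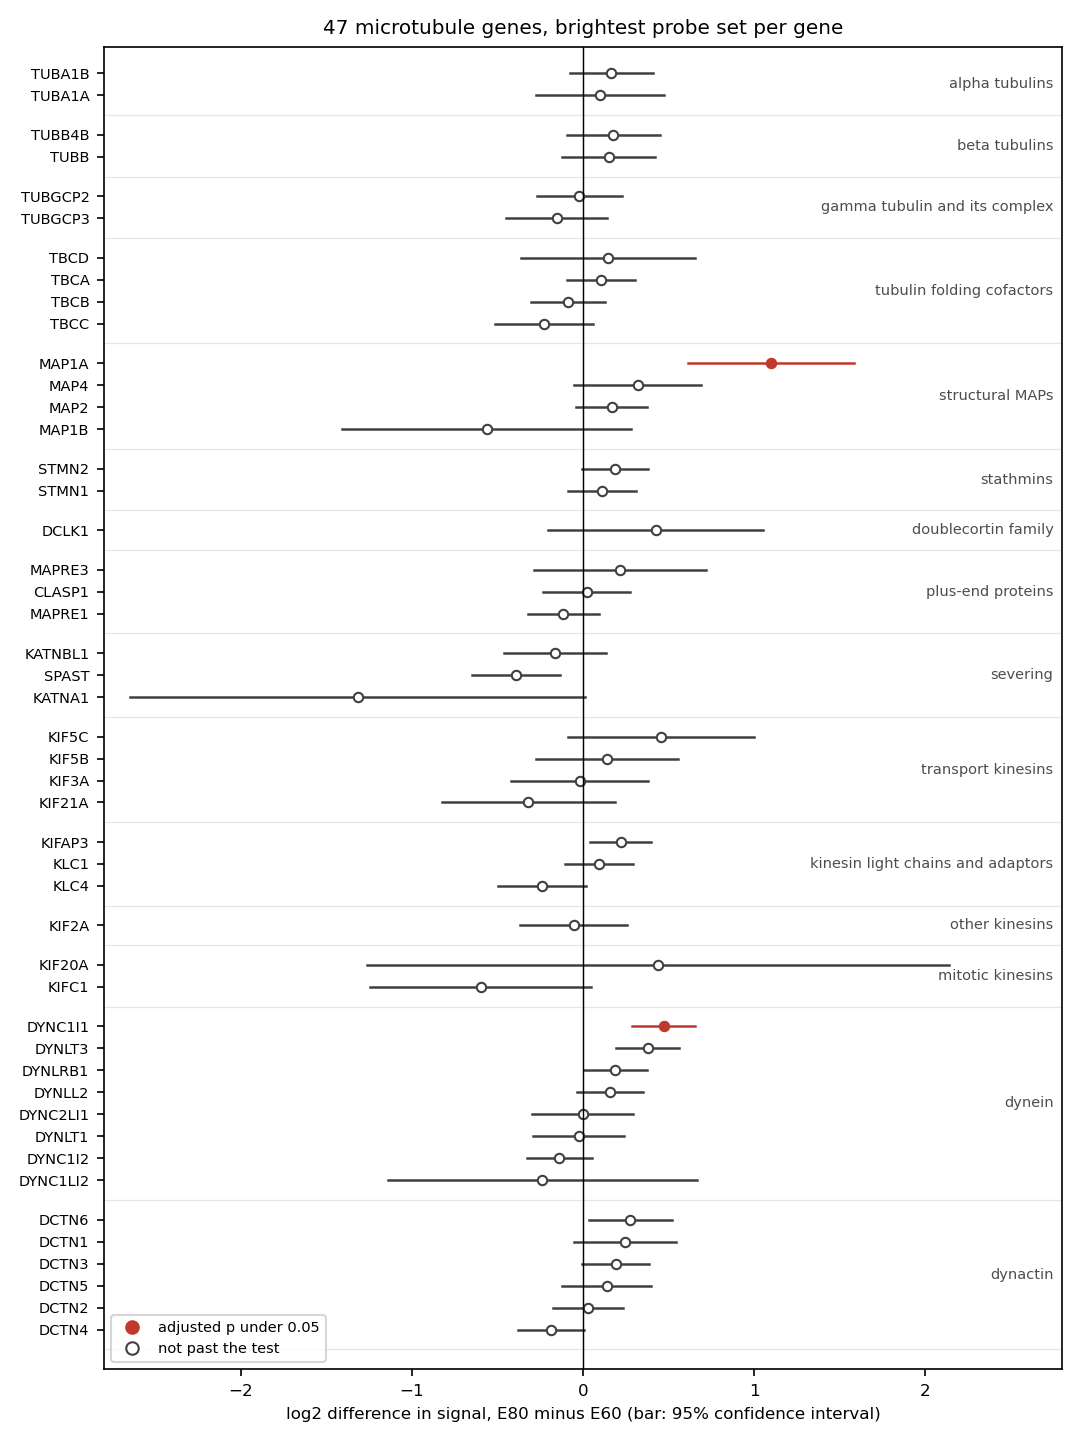
Log2 difference in signal between the days (E80 minus E60) with its 95% confidence interval for the 47 microtubule genes, grouped by role, 3 arrays per day. The 2 filled red points, MAP1A and DYNC1I1, are the genes past the test, and of the open points DYNLT3, SPAST, KIFAP3, DCTN6 and DYNLRB1 have intervals that leave out 0.

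The tubulins themselves, the building blocks of the filament, did not pass the test, and all 4 had point estimates above 0. TUBA1B, an alpha tubulin made in most dividing and neural cells, had signals of 5203, 5569 and 5243 at E80 and 4736, 4196 and 5413 at E60. One E60 array was above 2 of the E80 arrays, so the days overlapped, and the log2 difference was 0.17 (95% confidence interval -0.07 to 0.41, adjusted p = 0.455). TUBA1A, the alpha tubulin of young neurons whose mutations cause lissencephaly in humans, had signals of 84.3, 102 and 92.5 at E80 and 76.9, 102 and 83.1 at E60, and its difference was 0.10 (interval -0.28 to 0.47). Its probe set lay at percentile 58.2 of mean signal, against 99.99 for that of TUBA1B, and how well it reads TUBA1A was not tested. Alpha tubulin genes are nearly identical in sequence, so a probe set of one may also read another, which was not tested, and the transcript that the study names TUBA1 could not be matched by symbol, so that it is not analysed here and the statement on tubulins covers these 4 genes alone. The beta tubulin TUBB had 4135, 4498 and 4158 at E80 against 3462, 3556 and 4597 at E60, with a difference of 0.15 (interval -0.12 to 0.42). For TUBB4B, another beta tubulin, it was 0.18 (interval -0.10 to 0.45), with signals of 1083 to 1406 at E80 and 1006 to 1182 at E60.

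Bright probe sets as a whole differed in the same direction. Among the 720 probe sets in the highest 3% of signal, 76.8% were higher at E80, with a median log2 difference of 0.12, whereas the median was -0.08 for the probe sets below the median signal. Of the microtubule genes 15 fall into that highest band, 13 of them higher at E80, and their median was 0.16. After quantile normalization, which removes such a trend, the median of the band was -0.0015, and the differences of TUBA1B (-0.0070) and STMN1 (-0.031) were below 0, while those of TUBA1A (0.20), TUBB (0.0066), TUBB4B (0.071) and STMN2 (0.04) stayed above it.

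**Figure D2:**
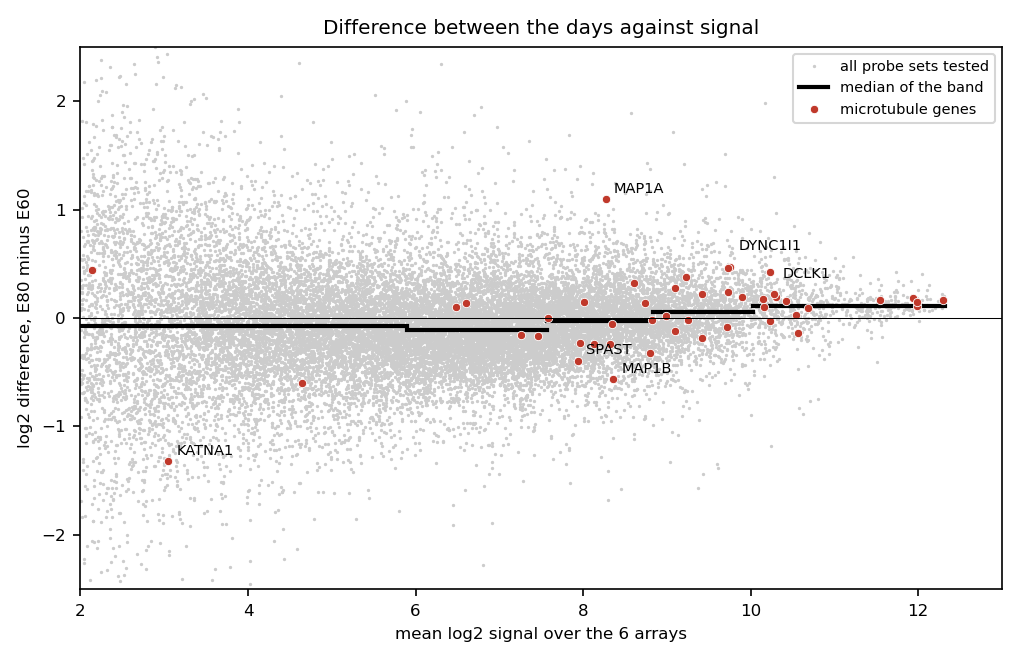
Log2 difference between the days (E80 minus E60) against the mean log2 signal over the 6 arrays for all probe sets tested with a mean log2 signal above 2 and a difference within 2.5 of 0 (grey) and the 47 microtubule genes (red). Black lines are the medians of all probe sets within 5 bands of signal, which go up to 0.12 in the brightest band, where 15 of the microtubule genes lie.

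None of the factors that assemble tubulin passed the test. TBCA, TBCB, TBCC and TBCD, cofactors that fold tubulin and join its alpha and beta chains, had log2 differences of -0.23 (TBCC) to 0.15 (TBCD). The days overlapped for all 4. The intervals were -0.52 to 0.06 for TBCC and -0.36 to 0.66 for TBCD, so that larger changes are not excluded. TBCA, the brightest of them, had signals of 1138, 1244 and 1190 at E80 and 1123, 1024 and 1177 at E60. No gamma tubulin gene itself was among the genes measured. TUBGCP2 and TUBGCP3, which hold gamma tubulin in the ring that starts a filament, had differences of -0.02 and -0.15, with TUBGCP2 at 455, 438 and 455 at E80 and 398, 469 and 507 at E60.

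Among the structural MAPs, MAP1A rose and had the larger change of the 2 genes called. MAP1A, a MAP of dendrites and axons that becomes abundant in maturing rodent neurons, had signals of 473, 355 and 547 at E80 against 239, 158 and 247 at E60. All 3 arrays at E80 were above all 3 at E60. The mean was 458 ± 96.6 at E80 and 215 ± 49.1 at E60 (SD, n = 3 each), a log2 difference of 1.10 with a standard error of 0.21 and an interval of 0.61 to 1.58 (adjusted p = 0.0451 from limma), or 2.14-fold. A second probe set of MAP1A had 515, 475 and 309 at E80 against 220, 202 and 129 at E60. Its days did not overlap either, and its difference of 1.24 (standard error 0.25) was just short of the threshold (adjusted p = 0.0501). The third probe set, with signals of 16.9 to 39.9 at E80 and 21.1 to 33.9 at E60, showed no such order (difference -0.14, adjusted p = 0.881). The call for the brightest probe set was lost when any array other than E80 replicate 2 was left out (adjusted p 0.0610 to 0.165, against 0.0405 without E80 replicate 2), and with 32 added to each signal (adjusted p = 0.0545), while the difference was 0.89 to 1.27 in these settings.

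MAP1B, the related MAP known as the early form in growing rodent axons, pointed the other way without passing the test. Its signals were 282, 408 and 170 at E80 and 544, 475 and 244 at E60. Replicate 3 was the lowest of its day on both days, the days overlapped, and the log2 difference was -0.56 (interval -1.41 to 0.28, adjusted p = 0.473). The change of MAP1A exceeded that of MAP1B by 1.66 on the log2 scale, with overlap between the days (exact permutation test over the 6 arrays, two-sided p = 0.20, adjusted p = 0.20 over 2 pairs of genes chosen after their values were seen). The smallest p that 3 against 3 arrays allow is 0.10. MAP2, the main MAP of dendrites, had signals of 3491, 2939 and 3089 at E80 against 2851, 2898 and 2705 at E60. The days did not overlap, and the difference of 0.17 (interval -0.04 to 0.37, adjusted p = 0.378) did not pass. A second probe set of MAP2 had 1342, 1420 and 1034 at E80 and 1232, 1254 and 990 at E60. There the days overlapped (difference 0.12, adjusted p = 0.715 from limma). MAP4, the MAP found in most cell types, had a difference of 0.32 (adjusted p = 0.349) on its brightest probe set and of -0.24 and -0.41 on the dimmer ones.

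**Figure D3:**
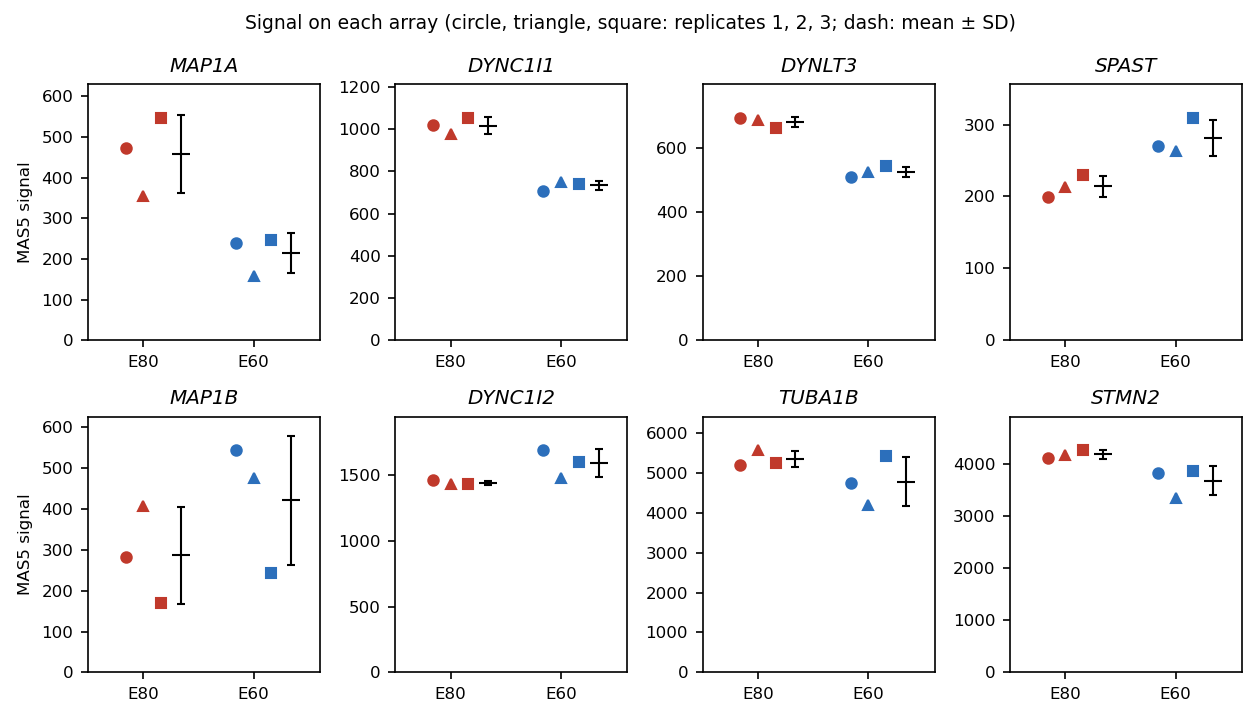
MAS5 signal of 8 microtubule genes on each array, with E80 in red and E60 in blue, 3 arrays per day, and the mean with its SD beside them (each panel has its own axis from 0). MAP1A and DYNC1I1 kept the days apart and passed the test, DYNLT3, SPAST, DYNC1I2 and STMN2 kept them apart without passing, and MAP1B and TUBA1B overlapped.

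Neither stathmin, proteins that take up free tubulin and promote the shrinking of filaments, passed the test. STMN2, a stathmin of growing axons, had 4108, 4165 and 4262 at E80 against 3823, 3351 and 3856 at E60. The E80 arrays were all higher, and the log2 difference was 0.19 (interval -0.01 to 0.38, adjusted p = 0.294), with 0.21 on its other probe set. STMN1, the stathmin of dividing progenitors and young neurons, had 4103, 4405 and 4121 at E80 and 3958, 3602 and 4148 at E60, a difference of 0.11 (interval -0.08 to 0.31).

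DCLK1, the doublecortin-like kinase that binds microtubules in migrating neurons, had the widest spread within a day among the members in the highest 10% of signal (pooled SD 0.461 on the log2 scale). Its signals were 1836, 1652 and 891 at E80 and 1200, 1167 and 799 at E60, so replicate 3 was low on both days. The log2 difference was 0.42 (interval -0.20 to 1.05, adjusted p = 0.465), and its other probe sets had 0.42 and 0.26. The related gene DCX and the CRMP proteins are not analysed here. Of the proteins at growing plus ends, MAPRE1, MAPRE3 and CLASP1 had differences of -0.12, 0.22 and 0.02, and the days overlapped for all 3. MAPRE3, which is enriched in neurons, had 729, 653 and 843 at E80 and 550, 502 and 924 at E60.

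The enzymes that cut microtubules had log2 differences below 0 without passing the test. SPAST (spastin), which is mutated in a hereditary spastic paraplegia in humans, had signals of 199, 214 and 229 at E80 against 271, 263 and 309 at E60. All E80 arrays were below all E60 arrays, with a difference of -0.39 (standard error 0.11, interval -0.65 to -0.14, adjusted p = 0.116). KATNA1, the catalytic subunit of katanin, was dim, with 8.21, 7.50 and 2.34 at E80 and 18.1, 13.8 and 8.93 at E60, and its difference of -1.32 had an interval of -2.65 to 0.01. KATNBL1, a katanin regulator, had a difference of -0.16 with overlapping days.

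Of the motors that run towards the plus end, no kinesin passed the test. KIF5C, the neuronal heavy chain of conventional kinesin, had signals of 1177, 1046 and 790 at E80 and 1016, 700 and 529 at E60. The days overlapped, replicate 3 was again lowest on both, and the log2 difference was 0.46 (interval -0.09 to 1.00, adjusted p = 0.362). KIF5B, the heavy chain found in most cells, had a difference of 0.14, and KIF3A, a motor subunit of kinesin-2, one of -0.02 on its brightest probe set and of -0.06 to 0.14 on the others. KIF21A, whose mutations disturb the growth of eye muscle nerves in humans, had 460, 365 and 381 at E80 and 659, 544 and 347 at E60 (difference -0.32, interval -0.82 to 0.19). KIFAP3, which links kinesin-2 to its cargo, kept the days apart, with 1283, 1414 and 1342 at E80 against 1143, 1166 and 1153 at E60. Its difference of 0.22 (interval 0.04 to 0.40) did not pass (adjusted p = 0.186).

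The kinesin light chains, which bind cargo for conventional kinesin, had point estimates on opposite sides of 0, and neither passed. KLC1 had 1645, 1732 and 1737 at E80 and 1513, 1538 and 1746 at E60, with overlapping days. Its log2 difference of 0.09 (interval -0.10 to 0.29) was turned below 0 by quantile normalization. KLC4 was lower on all 3 of its probe sets, with differences of -0.24, -0.64 and -0.90 in the order of their signal (adjusted p = 0.309, 0.0682 and 0.209), and the days did not overlap on any of them. KIF2A, a kinesin that takes filaments apart at their ends, had 333, 348 and 282 at E80 and 360, 362 and 281 at E60, a difference of -0.05. The mitotic kinesins measured, KIF20A and KIFC1, were dim, with signals of 2.53 to 15.4 and 17.9 to 24.6 at E80 and 2.74 to 5.64 and 23.9 to 35.7 at E60, below the 59.85 that is the median of all probe sets, and their differences of 0.44 and -0.60 had intervals that include 0.

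Dynein, the motor that runs towards the minus end, held the other gene that rose. DYNC1I1, the dynein intermediate chain used mainly by neurons, had signals of 1022, 975 and 1053 at E80 against 706, 751 and 742 at E60. All E80 arrays were above all E60 arrays with a narrow spread on both days. The mean was 1017 ± 39.3 at E80 and 733 ± 23.4 at E60 (SD, n = 3 each), a log2 difference of 0.47 with a standard error of 0.08 and an interval of 0.29 to 0.65 (adjusted p = 0.0321 from limma), or 1.39-fold. As for MAP1A, the call held without E80 replicate 2 (adjusted p = 0.0484) and was lost without any other array (0.0566 to 0.132), with differences of 0.45 to 0.50. DYNC1I2, the intermediate chain found in most cells, had 1457, 1431 and 1431 at E80 against 1688, 1475 and 1596 at E60. Here all E80 arrays were the lower ones, and the difference of -0.14 (interval -0.33 to 0.05, adjusted p = 0.426) did not pass. A second and much dimmer probe set of DYNC1I2 fell, with 52.7, 48.8 and 42.3 at E80 against 99.8, 121 and 77.0 at E60 (difference -1.03, standard error 0.21, adjusted p = 0.0495 from limma). Its call was lost under quantile normalization (adjusted p = 0.0649), under median centring (adjusted p = 0.0670), with 32 added to each signal (adjusted p = 0.0671), and when any array other than E60 replicate 3 was left out (0.0808 to 0.183). The change of DYNC1I1 exceeded that of DYNC1I2, on their brightest probe sets, by 0.61 on the log2 scale, with no overlap between the days (exact permutation test, two-sided p = 0.10, the smallest these arrays allow, adjusted p = 0.20 over the same 2 pairs of genes).

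The light chains of dynein, which join the motor to cargo and to each other, were mostly higher at E80 without passing. Bright probe sets as a whole were mostly higher too. DYNLT3 had 695, 690 and 665 at E80 against 510, 525 and 544 at E60. On this probe set the days were clearly apart. Its log2 difference of 0.38 (standard error 0.08, interval 0.19 to 0.56) missed the threshold (adjusted p = 0.0576). It passed with array weights (adjusted p = 0.0298) and among the brightest 66% of probe sets (adjusted p = 0.0422). The dimmer probe set of DYNLT3 had 293, 330 and 331 at E80 and 274, 236 and 297 at E60. There the days overlapped (difference 0.24, adjusted p = 0.322 from limma). DYNLRB1 had 1017, 1006 and 1037 at E80 against 841, 904 and 940.3 at E60, with no overlap (difference 0.19, interval 0.0037 to 0.38, adjusted p = 0.269). DYNLL2 kept the days apart too, with 0.16 on its brightest probe set and 0.67 on a dimmer one. DYNLT1 had -0.02. Of the light intermediate chains, DYNC1LI2 had 334, 363 and 212 at E80 and 544, 435 and 178 at E60, the widest spread among the dynein genes (difference -0.24, interval -1.14 to 0.67), and DYNC2LI1, a chain of the dynein in cilia, had -0.0023.

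Dynactin, the complex that dynein needs for long runs, had no member past the test, and 5 of its 6 subunits had point estimates above 0. Of all probe sets 59.0% were higher at E80 between percentiles 90 and 97 of signal, and 76.8% above percentile 97. DCTN2, the brightest, had 1442, 1626 and 1451 at E80 and 1386, 1472 and 1568 at E60. The log2 differences were 0.24 for DCTN1, the subunit that binds microtubules, 0.03 for DCTN2, 0.19 for DCTN3, 0.14 for DCTN5 and 0.28 for DCTN6. DCTN6 had 601, 661 and 549 at E80 against 453, 527 and 513 at E60, with no overlap (interval 0.03 to 0.52, adjusted p = 0.220). DCTN4 stood on the other side, with 644, 651 and 633 at E80 against 697, 716 and 783 at E60 (difference -0.19, interval -0.38 to 0.01), and its dimmer probe sets had -0.40 and -0.42 (adjusted p = 0.192 and 0.177).

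For 20 of the 47 genes more than 1 probe set was measured, 49 in all. The probe sets of a gene had the same direction for 15 of these 20 genes and both directions for KIF3A, MAP1A, MAP1B, MAP4 and TUBGCP2. Over all 76 probe sets 2 rose and 1 fell. For 12 of the 20 genes the difference was largest in size on the dimmest probe set, as for DYNC1I2 and KLC4, and for TBCC, whose dimmest (0.818 to 2.99 at E80 and 1.72 to 6.86 at E60) had -1.32.

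**Figure D4:**
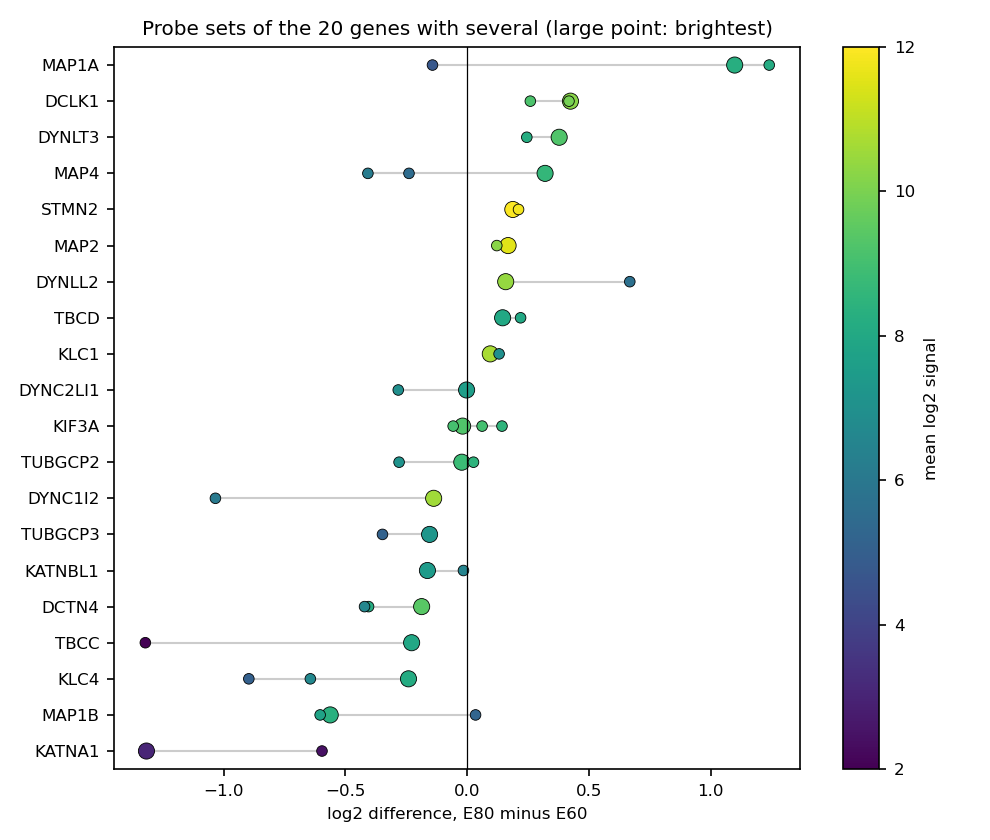
Log2 difference between the days (E80 minus E60) of each probe set of the 20 microtubule genes with several, coloured by mean log2 signal, with the brightest probe set of each gene drawn larger. The probe sets lie on one side of 0 for 15 genes, and for MAP1A the 2 brighter ones lie at 1.10 and 1.24 and the dim one at -0.14.

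The spread within a day differed widely between members. The median SD of the log2 signal within a day was 0.141 over the 47 genes, against 0.198 over all named genes. The members were also brighter (median percentile of signal 93.0 against 67.4), and the SD was not compared at like signal. It ranged from 0.0411 for DYNLT3 to 0.672 for DYNC1LI2 among the 44 members brighter than the median probe set. In 9 of the 47 genes replicate 3 was the lowest array on both days (DCLK1, DYNC1LI2, KATNA1, KIF2A, KIF3A, KIF5B, KIF5C, MAP1B and TBCC), which is 19.1%, beside 13.7% of all named genes. The signal of 28S ribosomal RNA was also lowest on replicate 3 of both days, and its part in these values was not tested. Across the 47 genes, which share the arrays and are not replicates, deviations from the mean of the day on E80 replicate 3 had a Pearson correlation of 0.466 with those on E60 replicate 3 and of -0.612 with those on E60 replicate 2. For E80 replicate 2 it was 0.608 with E60 replicate 2 and -0.455 with E60 replicate 3, and for E80 replicate 1 it was 0.134, 0.479 and -0.371 with E60 replicates 1, 2 and 3. Across the 12000 probe sets above the median signal, arrays of the same number had 0.103, 0.241 and 0.246 for replicates 1, 2 and 3. There E80 replicate 3 had -0.300 with E60 replicate 2, and E80 replicate 2 had -0.142 with E60 replicate 3. The deviations of a gene within a day sum to 0, so these correlations are not independent of each other. Replicate numbers were given in the order of the samples and pair no embryos.

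Of the lists of related genes, those of the spindle and of intermediate filaments held a gene past the test each. Of 37 spindle proteins that are not motors 19 were measured, RACGAP1 fell (1 of 19, beside 1.05% of named genes called lower), none rose and 18 did not pass. RACGAP1, a part of the complex that closes the cell body in division, had signals of 97.4, 136 and 142 at E80 against 202, 234 and 239 at E60. The days did not overlap, and the log2 difference was -0.86 (standard error 0.17, adjusted p = 0.0449 from limma), a call lost under quantile normalization (adjusted p = 0.0518), under median centring (adjusted p = 0.0586) and without any single array. NUSAP1, which bundles spindle microtubules, passed without E80 replicate 3 (difference -0.79, adjusted p = 0.0418) but not with all arrays (-0.64, adjusted p = 0.0618). The list's median was -0.49, against -0.05 over all probe sets, 18 of the 19 were lower at E80 (16 after quantile normalization and after median centring), and in 10 of the 19 every E80 array was below every E60 array, beside 14.7% of all named genes with no overlap and a lower signal. Of 34 tubulin-modifying enzymes and microtubule kinases 15 were measured and none passed, with a median of 0.06. The smallest p was that of SIRT2, a tubulin deacetylase also known from myelin, with a mean of 632 ± 48.7 at E80 and 449.6 ± 44.7 at E60 (SD, n = 3 each; limma difference 0.49, adjusted p = 0.0603). It passed under median centring (adjusted p = 0.0403), with array weights (0.0361) and among the brightest 66% of probe sets (0.0431). Of 27 end-binding and motor adaptor proteins 8 were measured and none passed, with a median of 0.23. NDEL1, which couples LIS1 to dynein, had 689, 627 and 682 at E80 against 469.9, 543 and 491 at E60 (difference 0.41, adjusted p = 0.0676), and passed with array weights (0.0455) and among the brightest 66% (0.0487). PAFAH1B1 (LIS1), which is mutated in lissencephaly in humans, had 1721, 1500.3 and 1520.3 at E80 against 1314, 1206 and 1365 at E60, with no overlap (difference 0.29, interval 0.08 to 0.50, adjusted p = 0.154). Of 10 intermediate filament genes 5 were measured, and GFAP of astrocytes rose (difference 1.89, adjusted p = 0.0304), a gene that the study had picked on these same arrays, with a call lost without any array other than E80 replicate 3 (adjusted p 0.0589 to 0.136).

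Of 12 lists of cell type markers, those of dividing cells, neurons and astrocytes, which hold different parts of this system, are described here. Among the other lists only that of interneurons held a gene past the test. This was CALB2 (difference 1.37, adjusted p = 0.0218 from limma), which the study had also picked on these arrays. The list of fibroblasts and meninges had a median of -0.95 with no gene called. Of 12 markers of dividing cells 9 were measured, 4 fell (TOP2A, CCNB1, PCNA and RRM2), none rose, and for all 9 every E80 array was below every E60 array, beside 1.05% of named genes called lower and 14.7% with no overlap and a lower signal. Their summed signal was 787 to 996 at E80 against 1459 to 1582 at E60, and none was at 0. The calls of TOP2A and CCNB1 were lost under quantile normalization and under median centring, which left 2 of the 9, while without E80 replicate 3 PCNA did not pass (adjusted p = 0.0617) and CENPF did (adjusted p = 0.0499). The list shares BIRC5 with the spindle proteins, and its part in their lower signals was not tested. Of the 6 measured general neuron markers SNAP25, a protein of synaptic vesicle release, rose and none fell (1 of 6, beside 1.49% of named genes called higher). SNAP25 had 2030, 1957 and 1929 at E80 against 1494, 1342 and 1458 at E60 (difference 0.46, adjusted p = 0.0342 from limma). Its call was lost under quantile normalization and without any single array. The list, which includes MAP1B, had a median of 0.27. The summed signal of these 6 markers was 9006 to 9157 at E80 against 7212 to 8072 at E60. Of the 6 measured astrocyte markers 4 rose (GFAP, APOE, ALDOC and NDRG2) and none fell, beside 1.49% of named genes called higher. S100B did not pass (difference 0.71, adjusted p = 0.230 from limma), and GJA1 had a difference of -0.13 with overlapping days. The summed signal of the 6 was 4508 to 7073 at E80 against 2975 to 3287 at E60. Without E80 replicate 3 only GFAP and APOE passed, both of which the study had picked on these same arrays. The part of neuron and astrocyte RNA in the rise of MAP1A and DYNC1I1 was not tested. Without E80 replicate 3, on which the choroid plexus genes were high, no microtubule gene passed the test in limma (10 were under an unadjusted p of 0.05), and 200 probe sets passed in all.

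**Figure D5:**
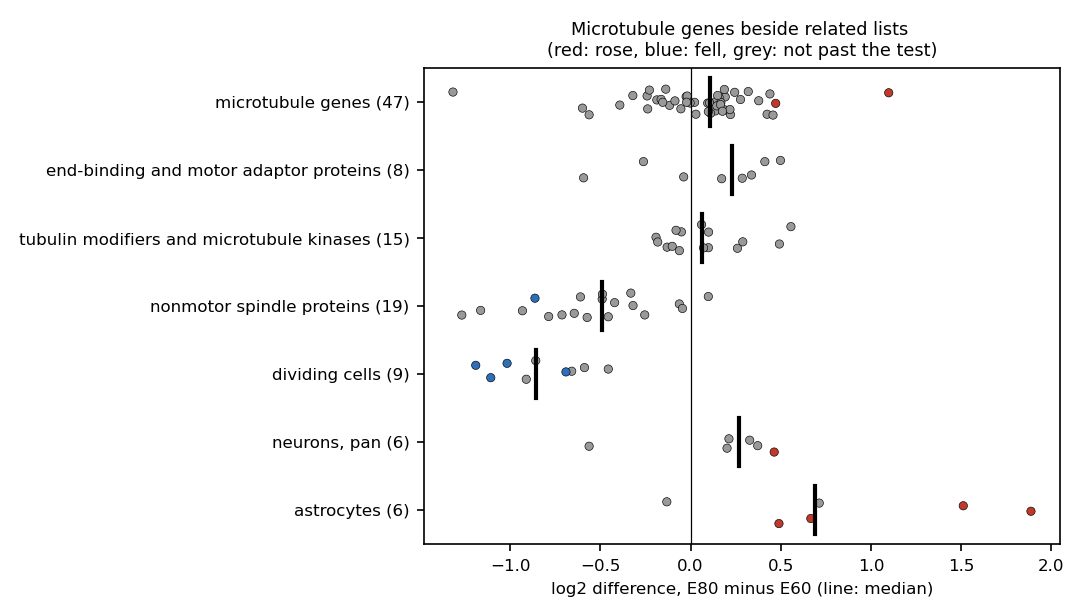
Log2 difference between the days (E80 minus E60) for the 47 microtubule genes and 6 lists of related and cell type marker genes, 1 point per gene at its brightest probe set, with the median as a black line. Red points rose and blue points fell at an adjusted p under 0.05, and the medians run from -0.86 for dividing cells to 0.69 for astrocytes, with the microtubule genes at 0.11.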

How the data were processed

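Each of the 6 arrays has 1 deposited intensity per probe set, a linear signal that the authors obtained with MAS5 (named in the submitters' processing notes), which sets matching against mismatching probes and scales a whole array at once. Its version, filters and detection calls per probe set were not given in the sources used here, beyond totals of present calls per array. Control probe sets (124) were left out and log2 signals of the other 23999 were taken without a pseudocount. E80 was compared with E60 in limma 3.58.1 (R 4.3.3, lmFit, eBayes with an intensity trend, Benjamini-Hochberg over all probe sets, threshold 0.05), without covariates. The study names no test. The platform annotation gives exactly 1 symbol for 10069 probe sets, and all 47 symbols used are the same in the Sscrofa11.1 gene table. A gene that matched the name rule is not reported here, nor are 2 probe sets that carry a member among several symbols. Members, lists and the rule for genes described in full (all members past the test, those nearest to it, the brightest of each role, the alpha tubulins and stathmins) were chosen with earlier results of these data known, and KLC4, MAP1B, KIF21A, DYNC1LI2, DCTN4, PAFAH1B1, TTR and second probe sets after their values were seen. The fit was run on simulated data with independent noise on each array and changes of 2-fold and 3-fold. Smaller changes and a deviating array were not simulated. Microarrays have no counting depth, so 3 arrays per day limit the precision, and since embryos are described as litter mates, p-values measure only the spread between these embryos. Each array was left out in turn, and other settings tried were array weights, a fit with no intensity trend, median centring, quantile normalization, a pseudocount of 32, a filter that kept the brightest 66%, the 3-fold rule, and all probe sets of a gene.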

Additional observations from a re-analysis of the deposited data

How the results depend on the processing

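Of the microtubule genes 2 passed the test, and 0 to 2 with 1 array left out (2 only without E80 replicate 2), 1 with 32 added to each signal (11 at an unadjusted p under 0.05), 0 in limma without the intensity trend (5 at an unadjusted p under 0.05) and 0 by the 3-fold rule. They were MAP1A and DYNC1I1 under quantile normalization and median centring, together with DYNLT3 under array weights and among the brightest 66%. Over all probe sets 467 passed, 1 to 367 with 1 array left out (1 without E80 replicate 1, E60 replicate 1 or E60 replicate 2), 763 among the brightest 66%, 1169 with array weights and 0 without the trend (3706 at an unadjusted p under 0.05), while 291 met the 3-fold rule. The cause was not tested, but fits without an array use fewer samples. The median difference of the members was 0.11, -0.0027 under quantile normalization and 0.22 under median centring.

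Of 62 genes and probe sets followed, 46 kept their direction in each setting other than the mean over all probe sets of a gene. That mean was left out of the count. MAP4, which is among the 46, had 0.32 on its brightest probe set and -0.41 and -0.24 on its others. Quantile normalization turned CLASP1 (-0.0040), DCTN2 (-0.087), DYNC2LI1 (0.052), KLC1 (-0.015), STMN1 (-0.031), TBCA (-0.0027) and TUBA1B (-0.0070). Median centring turned DYNC2LI1 (0.11), DYNLT1 (0.091), KIF2A (0.062), KIF3A (0.097), TBCB (0.029) and TUBGCP2 (0.093), and array weights TUBGCP2 (0.0082). With 1 array left out, differences ran from -0.063 to 0.088 for CLASP1, -0.027 to 0.074 for DCTN2, -0.11 to 0.088 for DYNC2LI1, -0.14 to 0.053 for DYNLT1, -0.17 to 0.036 for KIF2A, -0.17 to 0.14 for KIF3A, -0.12 to 0.055 for TUBGCP2, -0.72 to 0.085 for DYNC1LI2, -0.35 to 0.95 for KIF20A, -0.029 to 0.36 for TBCD and -0.0034 to 0.26 for KIF5B. None of these 16 genes passed the main test. No paired analysis was possible because the labels give no replicate numbers and tie no embryo of one day to an embryo of the other.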
